A study of Mus musculus with 8 samples.

Results

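Endothelial identity and adhesion genes were followed here as a group of 36 genes: 12 junction and surface proteins, 8 growth factor and lipid receptors with their partners, 8 transcription factors, 4 leukocyte adhesion receptors and 4 genes of haemostasis and caveolae. They were taken by name from the array, through the RefSeq transcript of each probe, and make up 36 of the 21368 genes named on it. The rule goes by gene name and uses no measured value, but the genes were chosen with earlier results of these data known. Each gene was represented by its named probe of highest mean signal. Of the 36, 34 could be tested between genotypes, and 33 were well above background on all 8 arrays.

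The arrays measured total RNA of mouse thoracic aorta, from 4 Fto -/- and 4 Fto +/+ samples on a C57BL6J/NMRI background, labelled male and housed with free food and water. The study asked how loss of Fto, an RNA demethylase, alters gene expression in the vasculature. The labels do not name the allele that was deleted or the age of the mice. They call each sample a mouse replicate and do not say whether an array held RNA of 1 animal or of several, so the tests reflect sample-to-sample spread alone, which may be technical. Levels are log2 intensities relative to the array's own 75th percentile, and are listed in the order of replicates 1 to 4. A level of one gene is never set against that of another, since probes differ in brightness.

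The 75th percentile of intensity lay between 294.9 and 415.6, and 44.5% to 47.7% of probes were well above background. Fto itself had levels of -2.53, -2.19, -2.56 and -2.77 in Fto -/- and 0.60, 0.85, 0.47 and 0.35 in Fto +/+ aorta. It fell by 3.08 ± 0.15 on the log2 scale (SE, 8.47-fold, limma adjusted p = 0.000403, exact two-sided permutation p = 0.0286 over 70 assignments, the smallest they can give). The free-text description of each sample names the opposite genotype, and Fto levels followed the titles and the genotype field. Both Xist probes were well above background on all 8 arrays (intensity 302 to 1260), while 6 probes of 5 Y-linked genes were so in 1 of 48 probe and array pairs, which goes against the label male. The 8 arrays sat on 1 slide with 1 scan date.

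Endothelial cells form the single inner layer of the aorta and are few beside smooth muscle. Their identity is held by transcription factors of the ETS and SOXF families, which drive genes for junctions between cells, for receptors of VEGF, angiopoietin and sphingosine 1-phosphate, and for control of clotting. Under inflammation the same layer displays selectins and the adhesion receptors that capture leukocytes. In whole aorta, fewer endothelial cells and less RNA of a gene in each cell cannot be told apart.

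Promoter sequence from RefSeq (GRCm38.p6) was matched for 19 of the 36 genes. Of these, 4 are shown because they carry the contrasts described next: Erg and Robo4, with the largest positive estimates relative to their errors, Emcn, with the most negative estimate, and Tie1, an endothelial receptor whose genotypes differed least among these 4. Each line gives the 150 bases before the transcription start, 5′ to 3′ on the gene's strand. Capitals mark the form GGAAG of the ETS core, or its reverse complement CTTCC. Matches to the shorter GGAA or TTCC alone are not marked. The Erg stretch is chr16:95586594-95586743 (minus strand, the first of 3 listed starts), Robo4 is chr9:37401822-37401971 (plus), Emcn is chr3:137340928-137341077 (plus) and Tie1 is chr4:118489850-118489999 (minus).
Erg: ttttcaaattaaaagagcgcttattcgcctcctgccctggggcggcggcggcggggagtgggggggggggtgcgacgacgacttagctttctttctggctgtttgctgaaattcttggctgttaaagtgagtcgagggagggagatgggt
Robo4: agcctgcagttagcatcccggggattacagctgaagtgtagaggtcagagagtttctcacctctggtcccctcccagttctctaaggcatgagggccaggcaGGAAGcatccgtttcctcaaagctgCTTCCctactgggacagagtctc
Emcn: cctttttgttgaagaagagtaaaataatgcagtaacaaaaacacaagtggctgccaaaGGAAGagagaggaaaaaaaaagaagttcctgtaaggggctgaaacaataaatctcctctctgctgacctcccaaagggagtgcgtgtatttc
Tie1: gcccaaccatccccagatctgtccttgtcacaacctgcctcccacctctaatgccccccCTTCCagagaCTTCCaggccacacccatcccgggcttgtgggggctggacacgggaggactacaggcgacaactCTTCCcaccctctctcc

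The marked form of the ETS core, GGAAG, occurred 2 times in the Robo4 stretch, 1 time in that of Emcn, 3 times in that of Tie1 and 0 times in that of Erg. Over the 250 bases before the start, on both strands, 13 of the 19 genes held it (68.4%), against 64.1% of all 32851 promoters. The SOX core ACAAT was present in 4 of 19 (21.1%, against 27.7%), and the KLF box CACCC in 14 of 19 (73.7%, against 52%). Each of the 19 genes was counted by its first listed start. The 32851 promoters include every listed start, so a gene can recur among them. None of the 3 motifs contains another. A match is a description of letters, not of binding.

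None of the 34 tested genes passed the test between genotypes. 0 were called higher in Fto -/- aorta and 0 lower, against 0.842% and 0.814% of all 25292 tested probes (1.66% in either direction, 419 probes; limma with Benjamini-Hochberg adjustment over all probes, threshold 0.05). At an unadjusted p under 0.05 there were 5 genes (14.7%), against a background of 19%. Erg and Robo4 were above 0 among them (background 8.72%), and Esam, Emcn and Sox18 below 0 (background 10.3%). The smallest adjusted p was 0.159. All 34 genes overlapped between genotypes, where 12.1% of all probes did not overlap (4.75% with Fto -/- above and 7.36% with it below). The median difference of the 34 was -0.12, beside -0.02 over all probes, with 22 genes below 0 and 12 above, and 52.5% of all probes lay below 0. The 95% intervals of the differences ran from -1.67 to 1.64 across the genes, and were widest for Emcn and Robo4, so the size of shift that the 4 arrays of each genotype could show differed from gene to gene.

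**Figure D1:**
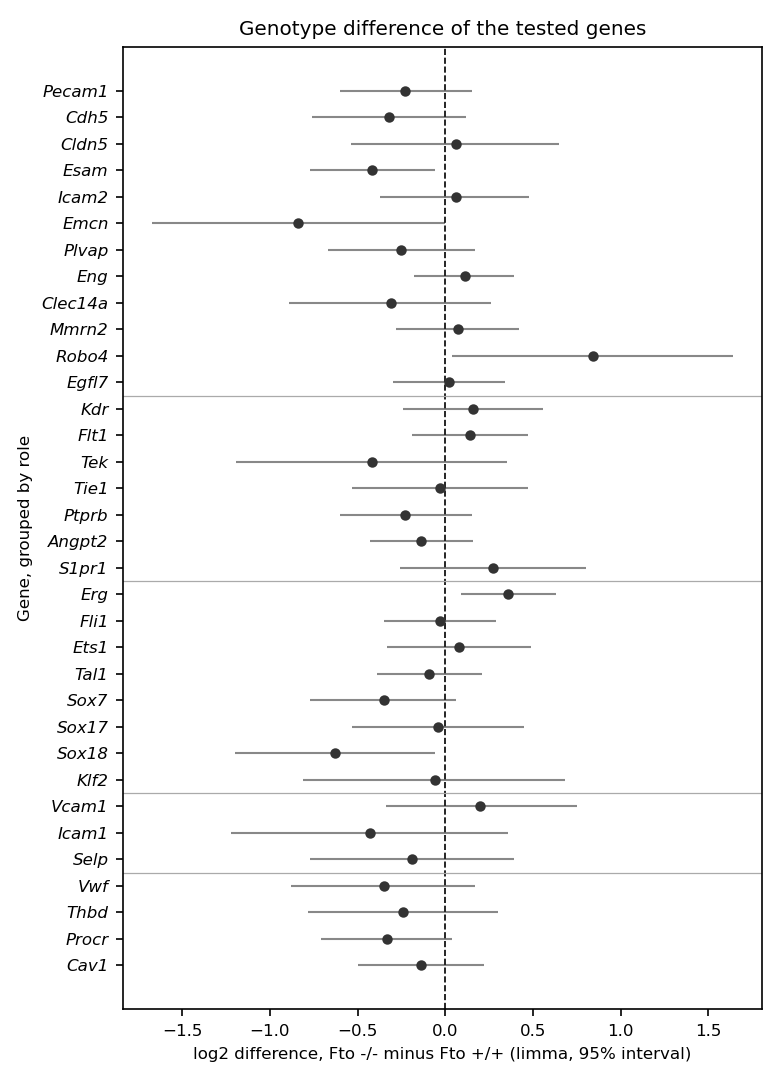
Difference in log2 level between Fto -/- and Fto +/+ aorta for each of the 34 tested genes, grouped by role, with points for the limma estimate and bars for its 95% interval (4 arrays of each genotype). The interval crosses 0 for all but 5 genes, Erg and Robo4 above it and Esam, Emcn and Sox18 below it, and no gene passed after adjustment over all probes.

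Among the 12 junction and surface proteins, all well above background on every array, 6 differences lay above 0 and 6 below, with a median of -0.10. Esam, an adhesion protein of endothelial tight junctions, had levels of 2.30, 1.76, 1.77 and 2.11 in Fto -/- and 2.17, 2.33, 2.56 and 2.54 in Fto +/+ aorta. All the Fto -/- arrays but replicate 1 lay under the lowest Fto +/+ array. Its difference was -0.42 ± 0.16 (SE, 95% interval -0.77 to -0.06, 1.34-fold, unadjusted p = 0.0257, adjusted p = 0.201).

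Emcn encodes endomucin, a sialomucin of the endothelial surface that is strongest in veins and capillaries. Its levels were -1.56, -2.85, -2.25 and -2.12 in Fto -/- and -1.37, -0.53, -1.36 and -2.18 in Fto +/+ aorta. The genotypes overlapped because Fto +/+ replicate 4 lay among the Fto -/- arrays. The difference was -0.84 ± 0.37 (1.79-fold, unadjusted p = 0.0494, adjusted p = 0.262), and Emcn had the widest spread within genotype of the 34 genes (SD 0.61, with a median over the genes of 0.29 and a lowest value of 0.16, that of Erg).

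Robo4, an endothelial roundabout receptor linked to barrier stability, had levels of -0.67, -0.67, -0.06 and -0.25 in Fto -/- and -1.55, -2.03, -0.23 and -1.22 in Fto +/+ aorta. The Fto -/- arrays were high together, and Fto +/+ replicate 3 alone reached them. The difference of 0.84 ± 0.35 (95% interval 0.04 to 1.64, unadjusted p = 0.0413, adjusted p = 0.243) had the opposite sign to that of Esam, although both genes lie on chromosome 9 with 2 protein-coding genes, Robo3 and Msantd2, between them.

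Pecam1 and Cdh5, the platelet endothelial adhesion molecule and VE-cadherin of adherens junctions, are the usual identifying genes of the layer. Pecam1 had levels of 1.22, 0.98, 0.79 and 1.17 in Fto -/- and 0.96, 1.45, 1.57 and 1.08 in Fto +/+ aorta. The lowest array was Fto -/- replicate 3 and the highest Fto +/+ replicate 3, but the genotypes interleaved, and the difference was -0.23 ± 0.16 (95% interval -0.60 to 0.15, adjusted p = 0.485). Cdh5 showed levels of 0.86, 0.23, 0.10 and 0.34 in Fto -/- and 0.69, 0.74, 1.01 and 0.36 in Fto +/+ aorta. Here 3 Fto -/- arrays lay just under the lowest Fto +/+ array while replicate 1 lay above 3 Fto +/+ arrays, which gave -0.32 ± 0.19 (95% interval -0.76 to 0.12, adjusted p = 0.396).

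The remaining junction and surface genes had smaller or less certain estimates. Claudin 5 (Cldn5), the main claudin of endothelial tight junctions, spanned 2.34 to 3.13 in Fto -/- aorta and 2.18 to 3.19 in Fto +/+ aorta, a difference of 0.06 ± 0.26. Icam2, a constitutive leukocyte ligand, spanned 4.72 to 5.33 and 4.80 to 5.40 (0.06 ± 0.18). For 4 further genes the differences were 0.11 ± 0.13 for endoglin (Eng), a TGF-beta co-receptor, 0.07 ± 0.15 for the matrix protein Mmrn2, 0.02 ± 0.14 for the secreted factor Egfl7 and -0.31 ± 0.25 for Clec14a, a surface lectin. Plvap, which builds the diaphragms of fenestrae and caveolae, had -0.25 ± 0.18 on its brighter probe and -0.26 ± 0.23 on the other. After adjustment, p was lowest for Plvap among these 7 genes (0.486) and highest for Egfl7 (0.954).

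**Figure D2:**
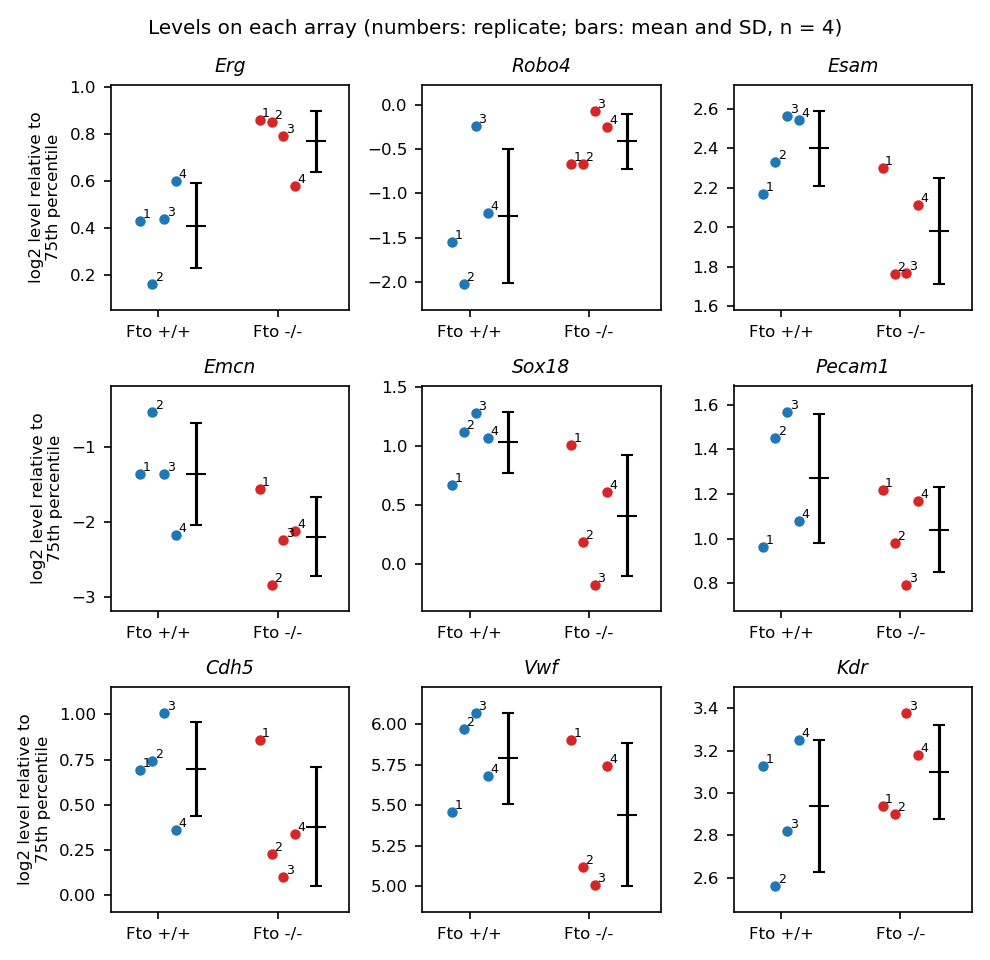
Log2 level relative to the array's 75th percentile on each array for 9 endothelial genes, with replicate numbers beside the points and the mean and SD (n = 4) of each genotype as bars; each panel has its own axis. In Erg and Robo4 the Fto -/- means (0.77 and -0.41) lie above those of Fto +/+ (0.41 and -1.26), in Esam, Emcn and Sox18 below, and in every panel at least 1 array of one genotype reaches into the range of the other.

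Of the 8 genes for growth factor and lipid receptors with their partners, 7 could be tested, 3 with differences above 0 and 4 below (median -0.03, 0 at an unadjusted p under 0.05). Kdr, the main signalling receptor for VEGF-A, had levels of 2.94, 2.90, 3.38 and 3.18 in Fto -/- and 3.13, 2.56, 2.82 and 3.25 in Fto +/+ aorta. The genotypes were interleaved, with a difference of 0.16 ± 0.18 (adjusted p = 0.650). Its second, dimmer probe gave a larger estimate of 0.97 ± 0.44 (adjusted p = 0.279) and was well above background on 7 arrays.

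Flt1, the decoy-like VEGF receptor, gave 0.14 ± 0.15 (adjusted p = 0.630). Flt4, the VEGF-C receptor best known from lymphatic vessels, was well above background on 1 array only, Fto +/+ replicate 3, and was not tested. Its intensities ran from 6.8 to 182.

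Tek (Tie2), the angiopoietin receptor, had levels of -0.64, -1.63, -1.66 and -0.83 in Fto -/- and -1.02, -0.45, -0.16 and -1.46 in Fto +/+ aorta. Fto -/- replicates 2 and 3 were the lowest and Fto +/+ replicates 2 and 3 the highest, and the difference of -0.42 ± 0.34 (95% interval -1.19 to 0.35, adjusted p = 0.530) did not pass. Its partner receptor Tie1 had levels of 0.92, 0.50, 0.32 and 0.78 in Fto -/- and 0.25, 0.77, 1.19 and 0.44 in Fto +/+ aorta, with the extremes both in Fto +/+ and a difference of -0.03 ± 0.22 (adjusted p = 0.95).

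Angpt2, the ligand that modulates Tek, ranged from 2.29 to 2.84 in Fto -/- but only from 2.73 to 2.81 in Fto +/+ aorta (-0.14 ± 0.13, adjusted p = 0.589). Ptprb encodes the phosphatase VE-PTP, which restrains Tek and VE-cadherin. It gave -0.23 ± 0.16 (adjusted p = 0.480) on its brighter probe and -0.02 ± 0.14 on the other. S1pr1, the receptor through which sphingosine 1-phosphate tightens the endothelial barrier, gave 0.27 ± 0.23 (adjusted p = 0.560).

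Of the 8 transcription factors, 2 differences lay above 0 and 6 below, with a median of -0.05. Erg, an ETS factor that maintains endothelial identity in the adult, had levels of 0.86, 0.85, 0.79 and 0.58 in Fto -/- and 0.43, 0.16, 0.44 and 0.60 in Fto +/+ aorta. The genotypes overlapped only in that Fto +/+ replicate 4 exceeded Fto -/- replicate 4 by 0.02. The difference was 0.36 ± 0.12 (95% interval 0.09 to 0.63, 1.28-fold, unadjusted p = 0.0151, adjusted p = 0.159).

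The second Erg probe had levels of -0.88, -1.18, -1.02 and -0.98 in Fto -/- and -1.45, -2.03, -1.55 and -1.11 in Fto +/+ aorta. Fto -/- replicate 2 alone fell under Fto +/+ replicate 4 on it, and its difference was 0.52 ± 0.18 (unadjusted p = 0.0196, adjusted p = 0.180). Both probes read the same RNA, so they are not independent. The related ETS factors Fli1 (-0.03 ± 0.14, adjusted p = 0.934) and Ets1 (0.08 ± 0.18, adjusted p = 0.845) had estimates close to 0.

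Sox18, a SOXF factor of vascular and lymphatic development, had levels of 1.01, 0.19, -0.18 and 0.61 in Fto -/- and 0.67, 1.12, 1.28 and 1.07 in Fto +/+ aorta. Fto -/- replicates 2 and 3 were far under the other arrays and Fto -/- replicate 1 lay among the Fto +/+ arrays. The difference was -0.63 ± 0.25 (95% interval -1.20 to -0.06, 1.54-fold, unadjusted p = 0.0349, adjusted p = 0.228). The other SOXF factors gave -0.35 ± 0.18 for Sox7 (adjusted p = 0.330) and -0.04 ± 0.21 for Sox17 (adjusted p = 0.937), whose second probe had the opposite sign (0.03 ± 0.19). Tal1, a basic helix-loop-helix factor of blood and vessel development, gave -0.09 ± 0.13 (adjusted p = 0.740).

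Klf2 is the factor induced by laminar shear stress that raises anti-thrombotic genes. It had levels of 4.41, 4.10, 3.37 and 3.80 in Fto -/- and 3.97, 4.66, 4.15 and 3.17 in Fto +/+ aorta. Its arrays spread over more than a log2 unit in both genotypes, and the difference of -0.06 ± 0.33 (95% interval -0.81 to 0.68, adjusted p = 0.933) could not be placed on either side of 0.

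The 4 leukocyte adhesion receptors include genes that resting endothelium keeps low and inflammatory cytokines induce. Sele, E-selectin, was well above background on 0 of 8 arrays, with intensities of 6.0 to 8.89 in both genotypes, and was not tested. Icam1, the ligand of leukocyte beta2 integrins, had levels of -1.90, -3.80, -2.78 and -2.58 in Fto -/- and -2.31, -2.24, -2.20 and -2.60 in Fto +/+ aorta. Fto -/- replicate 2 was not well above background and stood far under the rest, and the difference was -0.43 ± 0.35 (adjusted p = 0.529).

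Vcam1, the ligand of alpha4 integrins that smooth muscle can also make, had levels of 3.15, 2.07, 2.49 and 2.77 in Fto -/- and 2.28, 2.82, 2.46 and 2.11 in Fto +/+ aorta. Both the highest and the lowest array were Fto -/- ones. The difference was 0.20 ± 0.24 (adjusted p = 0.679), and the second probe had the opposite sign (-0.17 ± 0.20, adjusted p = 0.685). Selp, P-selectin, which endothelium stores with von Willebrand factor, gave -0.19 ± 0.26 (adjusted p = 0.721).

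The 4 genes of haemostasis and caveolae all had estimates below 0 (median -0.29), and none reached an unadjusted p of 0.05. Vwf, the von Willebrand factor that tethers platelets, had levels of 5.90, 5.12, 5.01 and 5.74 in Fto -/- and 5.46, 5.97, 6.07 and 5.68 in Fto +/+ aorta. Fto -/- replicates 2 and 3 lay under every other array and replicates 1 and 4 among those of Fto +/+. The difference was -0.35 ± 0.23 (95% interval -0.88 to 0.17, adjusted p = 0.435).

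Thrombomodulin (Thbd) and the endothelial protein C receptor (Procr), which together switch thrombin to anticoagulant signalling, gave -0.24 ± 0.24 (adjusted p = 0.615) and -0.33 ± 0.16 (adjusted p = 0.309). For Procr, Fto -/- arrays spanned 2.42 to 2.72 and Fto +/+ arrays 2.64 to 3.25. Cav1, the coat protein of caveolae in endothelium, smooth muscle and fat cells, gave -0.14 ± 0.16 (adjusted p = 0.656). Of the 36 genes, 8 had 2 probes and 28 had 1. In 7 genes both probes were tested, and in 5 of these the signs were the same, Sox17 and Vcam1 being the exceptions. The second probe of Clec14a was well above background on 2 Fto -/- arrays only and was not tested. Its means were -3.05 in Fto -/- and -3.98 in Fto +/+ aorta, the opposite order to its brighter probe.

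The spread within a genotype had an order. Among the Fto -/- arrays, replicate 1 was highest in 25 of the 34 genes (73.5%, against 26.1% of all probes), while replicate 2 was lowest in 16 (47.1%, against 34.2%) and replicate 3 in 15 (44.1%, against 23.1%). Among the Fto +/+ arrays, replicate 3 was highest in 20 genes (58.8%, against 15.4%), and replicate 1 was lowest in 17 (50%, against 16.5%). The mean of the 34 levels, each centred on its own mean over the 8 arrays, was 0.23, -0.28, -0.19 and 0.03 in Fto -/- and -0.11, 0.14, 0.29 and -0.10 in Fto +/+ aorta. Genes on 1 array share its RNA and its scaling, so these shares are a description of the 8 arrays. Other endothelial-enriched genes had levels of 0.16, -0.22, -0.06 and 0.02 in Fto -/- and -0.12, 0.03, 0.32 and -0.12 in Fto +/+ aorta. Their highest array in each genotype was the same as for the 34 genes. The same 2 arrays were highest in the macrophage list (0.80 and 0.35) and in the platelet list (0.44 and 0.32, 2 tested genes). Both lists were also lowest in Fto -/- replicate 2 among the Fto -/- arrays (-0.36 and -0.25). Among the Fto +/+ arrays they were lowest in replicate 4 (-1.37 and -0.42). Red cell genes, on the same scale, had levels of 1.03, -0.59, -0.12 and -0.25 in Fto -/- and -0.92, 0.60, 0.04 and 0.22 in Fto +/+ aorta. They too were highest in Fto -/- replicate 1, and lowest in Fto -/- replicate 2 and Fto +/+ replicate 1 within each genotype. Among the Fto +/+ arrays, though, they peaked in replicate 2 (0.60) and were at 0.04 in replicate 3, where the 34 genes peaked. The part of blood or of other cells in the endothelial order was not tested.

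Genes whose highest Fto -/- array was not replicate 1 came from every role but the leukocyte adhesion receptors. The growth factor and lipid receptors with their partners held more of them than any other role (Kdr, Flt1, Angpt2 and S1pr1). Among the Fto -/- arrays, Robo4, Kdr, Fli1, Ets1 and Cav1 peaked in replicate 3, Flt1, S1pr1 and Procr in replicate 2, and Angpt2 in replicate 4. Pecam1, Cdh5, Tie1, Vwf and Sox18 were among the 25 with their Fto -/- maximum in replicate 1.

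**Figure D3:**
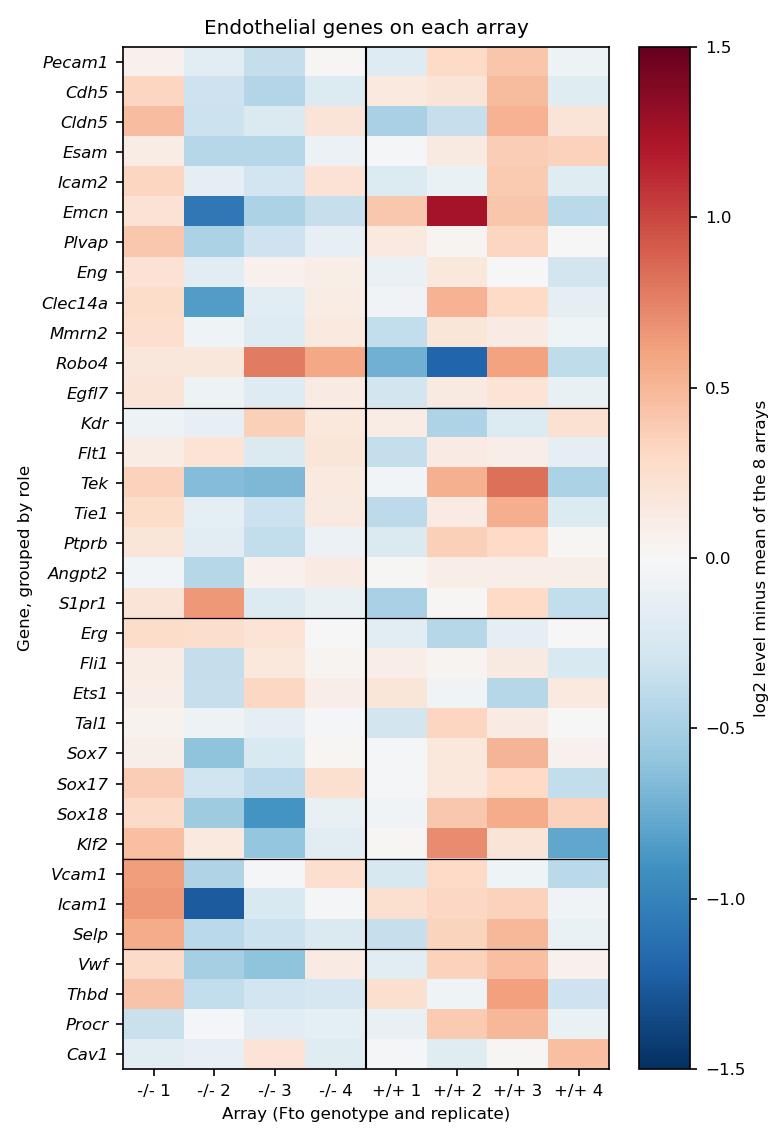
Log2 level of the 34 tested genes on each of the 8 arrays, minus the gene's mean over the arrays, with genes grouped by role and the Fto -/- arrays left of the line. Colour runs from blue (below the mean) to red (above it). Fto -/- replicate 1 and Fto +/+ replicate 3 carry mostly red cells (mean 0.23 and 0.29) and Fto -/- replicates 2 and 3 mostly blue ones (-0.28 and -0.19).

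Array position was also set beside these levels. On the slide, columns 2 and 3 each held 1 array of either genotype (replicate 2 of both in column 2, replicate 3 of both in column 3), and the outer columns held 1 genotype each, Fto -/- replicates 1 and 4 in column 1 and the same replicates of Fto +/+ in column 4. Within column 2, 27 of the 34 genes were below 0 (median -0.45), and within column 3, 26 of 34 (median -0.64). The medians over all probes in these columns were -0.05 and 0.01, with 54.3% and 48.6% of probes below 0. In both columns the Fto -/- array lay in slide row 1 and the Fto +/+ array in row 2, so genotype and row cannot be told apart within them.

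Esam gave -0.57 and -0.80 in columns 2 and 3, Emcn -2.33 and -0.89, and Sox18 -0.93 and -1.45. Erg gave 0.68 and 0.35, and Robo4 1.35 and 0.17. With 1 array of each genotype these are values with no test. They set the lowest Fto -/- arrays for this gene group against the highest Fto +/+ arrays, and leave out replicates 1 and 4 of both genotypes. The part of slide position in these levels was not tested beyond these fits.

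With the slide column as a block in limma, 18 genes reached an unadjusted p under 0.05 (52.9%, against 17.3% of all probes), 16 of them below 0, and the median was -0.55. Tek had the smallest adjusted p (-1.34 ± 0.20, adjusted p = 0.142), followed by Vwf (-0.96 ± 0.16, adjusted p = 0.154) and Sox7 (-0.75 ± 0.14, adjusted p = 0.163). Erg (0.52 ± 0.18) and Kdr (0.45 ± 0.16) were the 2 above 0. None passed after adjustment. This contrast rests on columns 2 and 3 alone, since the outer columns hold 1 genotype each, and so it too cannot be told apart from a contrast of slide rows. Slide rows gave other counts: with the row as a block 1 gene, Robo4 (1.00 ± 0.42, adjusted p = 0.365), reached an unadjusted p under 0.05 (2.94%, against 13.2% of all probes), and the median of the 34 was -0.07. Within row 1 (3 Fto -/- arrays and 1 Fto +/+ array) the median was -0.04 and within row 2 (1 and 3) it was -0.13.

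Single arrays also set how many genes came near the threshold. Without Fto -/- replicate 1, 8 genes reached an unadjusted p under 0.05 (23.5%, against 16.7% of all probes), 6 of them below 0. Without Fto -/- replicate 2, and likewise without replicate 3, it was 1 gene, Erg in both (2.94%, against 20.1% and 13.4%). The count without Fto -/- replicate 4 was 3 (8.82%, against 15.5%). Leaving out Fto +/+ replicate 1, 2, 3 or 4 gave 4, 2, 2 and 3 genes (11.8%, 5.88%, 5.88% and 8.82%), against 15.1%, 15.3%, 15.9% and 25% of all probes.

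For the lists below, the shares over all tested probes were 1.66% past the threshold and 19% at an unadjusted p under 0.05. Of all probes, 12.1% did not overlap between genotypes and 52.5% lay below 0. Of 30 other endothelial-enriched genes, 28 were tested, 0 passed in either direction and 2 reached an unadjusted p under 0.05 (7.14%, against 19%). Their median was -0.07, with 18 of 28 below 0. Nostrin, which traffics endothelial nitric oxide synthase, had the smallest p with 1.05 ± 0.36 (adjusted p = 0.170), and it was well above background on 4 Fto -/- and 2 Fto +/+ arrays. Edn1, the vasoconstrictor endothelin 1, gave -0.65 ± 0.27 (adjusted p = 0.245).

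Of the 15 VEGF and angiopoietin ligands, co-receptors and signalling partners, 0 passed and 5 reached an unadjusted p under 0.05 (33.3%, against 19% of all probes). Of these, 4 lay above 0 (background 8.72%), and the median of the list was 0.17. Angpt1, the ligand that activates Tek, had levels of -1.62, -2.16, -1.09 and -1.69 in Fto -/- and -2.20, -2.41, -2.29 and -2.90 in Fto +/+ aorta. The genotypes did not overlap, and the difference was 0.81 ± 0.24 (adjusted p = 0.125). The adaptor Shb, which binds the VEGF receptor Kdr, did not overlap either and gave -0.40 ± 0.11 (adjusted p = 0.114). These 2 were the only genes of the 15 without overlap, where 12.1% of all probes had none. In the sphingosine 1-phosphate pathway 9 of 12 genes were tested and 0 passed (median 0.04, Sphk2 -0.31 ± 0.12, Spns2 -0.44 ± 0.25).

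Of 16 genes of coagulation and fibrinolysis in the vessel wall, 11 were tested and 0 passed, with 0 at an unadjusted p under 0.05 (median -0.07, Pros1 0.15 ± 0.11, Tfpi 0.29 ± 0.22). Of 13 targets of NF-kB, the factor that induces Sele, Vcam1 and Icam1, 11 were tested and 0 passed (median 0.15). Birc3, an inhibitor of apoptosis among them, gave 0.55 ± 0.13 (adjusted p = 0.0735) with no overlap, and Sod2, mitochondrial superoxide dismutase, 0.42 ± 0.18 (adjusted p = 0.254). Other ETS, GATA, KLF and FOX factors gave 0 calls of 14 tested (median -0.11), with Elf1 at -0.47 ± 0.13 (adjusted p = 0.113) and Foxc2 at -0.42 ± 0.13 (adjusted p = 0.142).

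Among the leukocyte ligands of the adhesion receptors, 1 of 10 tested genes passed, against 1.66% of all probes. Itgb7, the integrin chain that pairs with alpha4 and binds Vcam1 and the mucosal addressin, had levels of -0.48, -1.24, -0.72 and -0.70 in Fto -/- and -1.69, -2.02, -1.83 and -2.0 in Fto +/+ aorta. It rose by 1.1 ± 0.17 (adjusted p = 0.0229) with no overlap. It did not pass without Fto -/- replicate 1, 3 or 4, or without Fto +/+ replicate 2 or 3 (adjusted p = 0.0586, 0.0766, 0.0728, 0.0576 and 0.0569), nor with the slide row (0.115) or column (0.168) as a block. Itgb7 is a leukocyte gene. The T cell list, given with the other cell types, was high on Fto -/- replicates 1, 3 and 4 and on Fto +/+ replicate 2, the array with the lowest Itgb7 level. The part of T cells in this result was not tested.

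Marker lists for kinds of endothelium had medians of both signs. Of 10 arterial markers 8 were tested, 0 passed, and 7 of 8 lay below 0 (median -0.16), against 52.5% of all probes. Efnb2, the arterial ephrin, had levels of 2.05, 1.84, 1.77 and 1.78 in Fto -/- and 2.41, 2.28, 2.27 and 2.13 in Fto +/+ aorta, without overlap, and gave -0.41 ± 0.10 (adjusted p = 0.0934). The elastic fibre gene Fbln5, the next by p, gave -0.33 ± 0.16 (adjusted p = 0.308).

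Of 10 capillary endothelial markers of fat and muscle, all were tested and 0 passed. Of these, 10 of 10 lay above 0 (median 0.49), while 52.5% of all probes lay below 0. The water channel Aqp1 spanned 6.16 to 6.42 in Fto -/- and 5.74 to 5.96 in Fto +/+ aorta (0.43 ± 0.10, adjusted p = 0.0739). Cxcl12, a chemokine that fibroblasts also make, spanned 3.36 to 4.44 and 1.61 to 3.15 (1.22 ± 0.35, adjusted p = 0.118). Neither overlapped. The brown adipocyte list moved beside them, with 7 of 8 tested genes above 0 (median 1.61) and 0 past the threshold. Cidea (1.88 ± 0.47, adjusted p = 0.0884) and Otop1 (1.41 ± 0.36, adjusted p = 0.0939) had no overlap, and Ucp1, the uncoupling protein of brown fat, gave 2.90 ± 0.94 (adjusted p = 0.153). Adventitial fibroblast genes had 7 of 8 above 0 (median 0.31, Lum 0.93 ± 0.39, Col1a2 0.28 ± 0.12, 0 past the threshold), with levels of 0.29, 0.00, 0.20 and 0.18 in Fto -/- and 0.13, -0.34, 0.16 and -0.62 in Fto +/+ aorta. Like Cxcl12, this list was highest on Fto -/- replicate 1 and lowest on Fto +/+ replicate 4. The part of fat tissue and fibroblasts in the capillary values was not tested.

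Of 5 venous markers 3 were tested and Ackr1, the atypical chemokine receptor of venules and red cells, passed, where 1.66% of all probes did. Its levels were -1.70, -1.69, -1.69 and -1.74 in Fto -/- and -2.49, -2.49, -2.17 and -2.41 in Fto +/+ aorta. It rose by 0.68 ± 0.10 (adjusted p = 0.0192) with no overlap, and the list's median was 0.04. Ackr1 did not pass without Fto -/- replicate 1, 3 or 4 or Fto +/+ replicate 1 (adjusted p = 0.0587, 0.0673, 0.0637 and 0.0625), nor with the slide row (0.0904), the slide column (0.178) or normexp background correction (0.37 ± 0.08, adjusted p = 0.0566). Among 4 tested red cell genes 0 had an unadjusted p under 0.05 (median 0.03, Hbb-bt 0.15 ± 0.41, Alas2 -0.07 ± 0.43). Of 5 lymphatic markers with a probe, Prox1 and Reln were well above background on 0 arrays, and Mmrn1 (1.24 ± 0.47, adjusted p = 0.206), Pdpn (0.37 ± 0.15) and Lyve1 (-0.07 ± 0.23) did not pass.

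**Figure D4:**
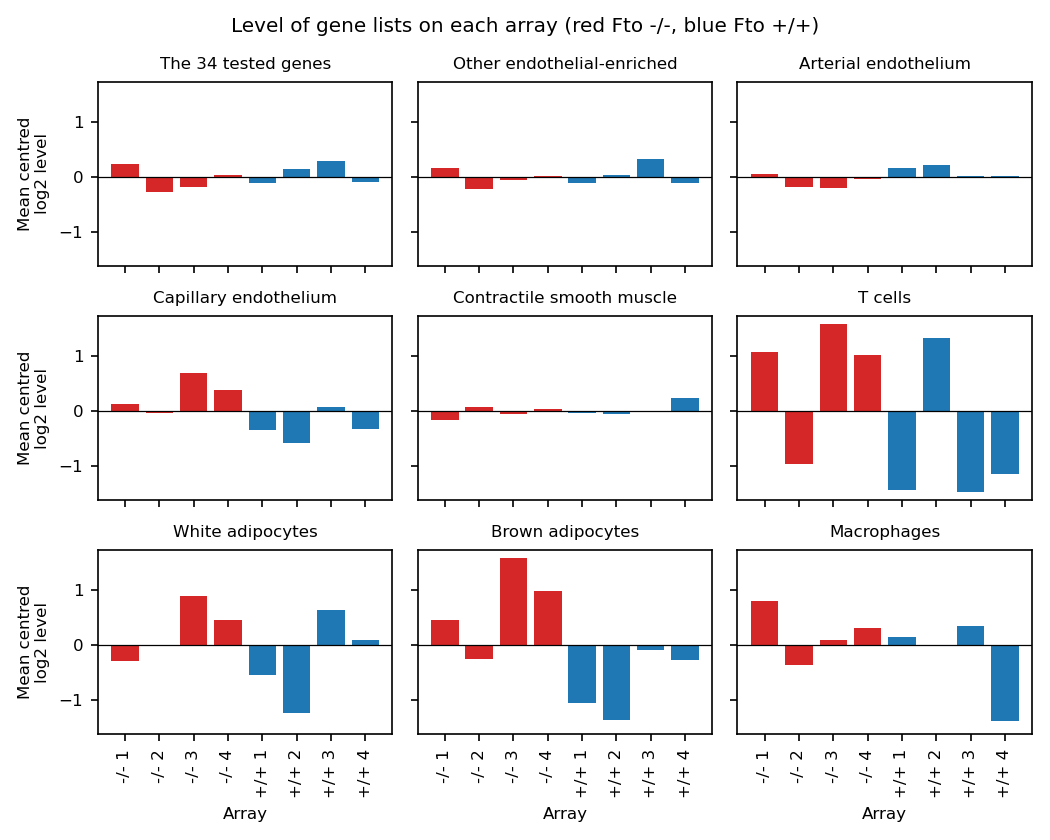
Level of 9 gene lists on each array, as the mean over the tested genes of log2 level minus the gene's mean over the 8 arrays, with Fto -/- arrays in red and Fto +/+ arrays in blue on a shared axis. The 34 endothelial genes stay between -0.28 and 0.29, and the T cell list runs from -1.47 to 1.58. The capillary, T cell, white adipocyte and brown adipocyte lists all have their highest bars in Fto -/- replicate 3.

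Lists for the other cells of the sample gave the following levels on the same centred scale. Contractile smooth muscle lay between -0.17 and 0.07 in Fto -/- and between -0.05 and 0.23 in Fto +/+ aorta, with 0 of 10 genes past the threshold (median 0.05). The smallest p were those of leiomodin 1 (Lmod1, -0.78 ± 0.17, adjusted p = 0.0681, no overlap) and desmin (Des, 0.41 ± 0.12, adjusted p = 0.128), and Myh11, the smooth muscle myosin, was well above background on all 8 arrays. T cell levels were 1.07, -0.97, 1.58 and 1.02 in Fto -/- and -1.43, 1.32, -1.47 and -1.14 in Fto +/+ aorta, with 0 of 11 tested genes past the threshold (median 1.33, Cd3g 2.54 ± 0.89, Lat 1.63 ± 0.74). In this list Cd3g and Lat were well above background on 4 Fto -/- arrays and 1 Fto +/+ array. Cd3d, Cd8a, Cd8b1 and Zap70 were so on 3 and 1. These genes passed the filter mainly through Fto -/- arrays, so their estimates and the median rest partly on values near background. The brighter probe of Rag1, a recombinase of immature lymphocytes, was well above background on the same 4 arrays on which this list was high. Macrophage levels were 0.80, -0.36, 0.10 and 0.32 in Fto -/- and 0.15, 0.01, 0.35 and -1.37 in Fto +/+ aorta (median 0.35, Fcgr1 0.87 ± 0.50, Cd68 0.50 ± 0.33, 0 past the threshold).

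White adipocyte genes spanned -0.28 to 0.89 on the Fto -/- arrays and -1.23 to 0.64 on the Fto +/+ arrays, and brown adipocyte genes -0.25 to 1.58 and -1.36 to -0.09. None passed in either list, where Trarg1 (0.97 ± 0.39) and Plin1 (1.01 ± 0.41) had the smallest p among white adipocyte genes. Trarg1 was well above background on 4 Fto -/- and 2 Fto +/+ arrays. Of 10 platelet and megakaryocyte markers, which bear on Vwf, Selp and Pecam1, 2 were tested (Pf4 0.29 ± 0.39, Itgb3 -0.07 ± 0.16). Both of these were well above background on all 8 arrays. Itga2b, Gp9, Gp5 and Gp6 were so on 0 arrays, Gp1ba on 1, Treml1 on 2 and Gp1bb on 3. Ppbp was so on 3 arrays, all of them Fto -/-. Leaving out the 4 arrays with the brighter Rag1 probe left 1 Fto -/- array against 3 Fto +/+ arrays. There 8 of the 34 genes reached an unadjusted p under 0.05 (23.5%, against 9.07% of all probes), 0 passed after adjustment, and the lone Fto -/- array was replicate 2, assumed to vary like the others. The part of T cells and fat in the levels of the 34 genes was not tested.

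The 5 remaining lists gave 0 genes past the threshold. By smallest p, these were Notch3 (-0.71 ± 0.21) and Higd1b (0.57 ± 0.22) of pericytes, and Myh7 (-1.46 ± 0.38) and Acta1 (-0.53 ± 0.15) of cardiac and skeletal muscle. They were S100b (0.71 ± 0.26) of Schwann cells, Rag1 (1.79 ± 1.23) of immature thymocytes, and Msln (-1.32 ± 0.84) and Krt19 (-0.08 ± 0.37) of mesothelium. Adjusted p-values lay between 0.0942 for Myh7 and 0.93 for Krt19.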

How the data were processed

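Total RNA of 8 thoracic aorta samples was labelled with Cy3 and hybridised to Agilent 8x60K mouse arrays, per the labels' protocols. The deposited intensity of each spot was background-subtracted by Agilent Feature Extraction 11.0.1.1 (annotation mm9), per the file headers. A second deposited table, of log2 values centred on each probe's median, served as an alternative. The levels used here are log2 intensity minus the array's 75th percentile over non-control spots, with outlier spots (126 to 189 per array) set missing and spots of 1 probe averaged. Probes well above background on at least 4 of 8 arrays were tested (25292 of 55681). The 8 arrays had no unused columns of other samples. The number of arrays limits the precision.

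Genotypes were compared with limma 3.58.1 (R 4.3.3, lmFit and eBayes), with p-values adjusted by Benjamini-Hochberg over all tested probes at a threshold of 0.05. The script was tested on simulated data. Probes were named by RefSeq accession through a GRCm38.p6 gene table (28331 probes, 50.9%), and each gene was represented by its named probe of highest mean. Outside the 36 genes and Fto, the text names the genes of each list that passed, or otherwise the 2 of smallest p, and some defining markers of cell types; 2 genes that the rule names are not reported here. The genes and lists were chosen with earlier results of these data known. Alternatives covered scaling, background correction, the filter, slide position, replicate number and left-out arrays.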

Additional observations from a re-analysis of the deposited data

Results flagged for a closer look

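In 68 sets of 4 arrays (34 genes in each genotype), 3 had 1 array standing apart, with a gap to the nearest of the others that exceeded Dixon's 95% critical value as a share of the whole range. Chance flags about 1 in 20 such sets. Angpt2, the modulating ligand of Tek, was 2.73 in Fto +/+ replicate 1, where the other Fto +/+ arrays lay between 2.80 and 2.81, a gap of 0.902 of a very narrow range. Thbd, thrombomodulin, was 4.33 in Fto -/- replicate 1 against 3.54 to 3.65 on the other Fto -/- arrays (0.855 of the range). Cav1, the coat protein of caveolae, was 2.22 in Fto -/- replicate 3 against 1.83 to 1.89 (0.855).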

How the results depend on the processing

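None of the 34 genes passed in any of 23 alternatives, where the smallest adjusted p ranged from 0.0783 (without Fto +/+ replicate 3) to 0.921 (within slide row 2). 14 kept the sign of their difference in every alternative and 20 changed it in at least 1 (67 of 781 values). Normexp on the median signal was chosen after seeing the data, since the version on the mean signal was not run, as were the fits within slide rows and without the 4 arrays with the brighter Rag1 probe.

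Genes at an unadjusted p under 0.05, 5 as reported, numbered 1 with the slide row as a block, 18 with the column, 9 without the 5 arrays with Rag1 above background, 8 without the 4 with its brighter probe, 1 and 0 within rows 1 and 2, and 1 to 8 with 1 array left out. All probes passing, 419 as reported, numbered 96 with no filter, 46 and 2 with row and column blocks, 1624 with array weights, 0 in both Rag1 settings, 0 and 1 within rows, and 101 to 886 with 1 array left out. The median difference moved to -0.55 with the column block. With normexp the estimates of some dim genes were smaller than reported, among them Emcn (-0.45 ± 0.19), Robo4 (0.58 ± 0.24) and Icam1 (-0.08 ± 0.12). With the replicate block 2 of the genes reached an unadjusted p under 0.05 (Erg and Robo4, 5.88%, against 17.3% of all probes) and 132 probes passed. The sample titles number the replicates and do not say whether the numbers pair the samples. Same-numbered arrays correlated at 0.155, -0.024, -0.019 and -0.041, and only replicate 1 correlated best with its own number. These 4 values cannot exclude a pairing. The cause of these shifts was not tested.

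Differences that changed sign were as follows. Normexp gave Egfl7 -0.01. The row block gave Tie1 0.16, Tal1 0.02 and Sox17 0.06. The column block gave Cldn5 -0.36, Vcam1 -0.36, Flt1 -0.11, Mmrn2 -0.29, Icam2 -0.36, Eng -0.13, Egfl7 -0.31 and Cav1 0.12. Without all Rag1 arrays the values were Klf2 0.04, Cldn5 -0.35, Vcam1 -0.30, Ets1 -0.23, Icam2 -0.23, Eng -0.12, Kdr -0.08, Tal1 0.00 and Egfl7 -0.04. Without the 4 brighter ones they were Klf2 0.34, Cldn5 -0.41, Vcam1 -0.21, Ets1 -0.32, Icam2 -0.14, Eng -0.04, Kdr -0.17 and Egfl7 -0.02. Within row 1 they were Tie1 0.33, Selp 0.29, Ptprb 0.10, Ets1 -0.17, Pecam1 0.04, Kdr -0.06 and Tal1 0.21, and within row 2 Angpt2 0.04, S1pr1 -0.10, Fli1 0.05 and Sox17 0.21. With 1 array left out the differences ran from -0.10 to 0.24 for Cldn5, -0.07 to 0.09 for Egfl7, -0.05 to 0.21 for Ets1, -0.11 to 0.09 for Fli1, -0.04 to 0.19 for Icam2, -0.34 to 0.16 for Klf2, -0.05 to 0.14 for Mmrn2, -0.17 to 0.08 for Sox17, -0.20 to 0.00 for Tal1 and -0.17 to 0.14 for Tie1. Ackr1 passed in 10 and Itgb7 in 11 of 23 alternatives, and both stayed above 0 (0.37 to 0.79 and 0.52 to 1.25). Sele and Flt4 are limited by signal over background.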
